A study of Homo sapiens with 20 samples.

Results

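Established human triple-negative breast cancer (TNBC) cell lines, 5 in number, were cultured with postsurgery wound-healing fluids (WHFs) or without them, and the lines differed in how widely their RNA responded. MDA-MB-231, BT549 and SUM 149 are called strong responders here, and MDA-MB-157 and MDA-MB-468 weak responders. The lines were chosen by the measured responses themselves, that is, by the SD of the log2 responses over detected probes, which was smaller in the 2 weak lines. All 20 arrays of the series entered the comparison, 12 of strong and 8 of weak lines. The line was the unit, so 3 lines were set against 2.

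For every line there were 2 cultures with WHFs and 2 without, paired by the letters A and B. All cultures were starved for 24 h. The WHF-treated cultures then received pooled fluids of several patients, at 5% in medium, for 48 h. Whether every culture had the same pool is not stated. The methods class MDA-MB-231, BT549 and MDA-MB-157 as mesenchymal-like and SUM 149 and MDA-MB-468 as basal-like, so both kinds occur among strong and among weak lines. Each line had its own culture medium, except that MDA-MB-231 and BT549 shared RPMI. Line and medium therefore cannot be told apart. MDA-MB-231 occupied 1 beadchip alone, SUM 149 and MDA-MB-468 shared another, and BT549 and MDA-MB-157 shared the third. Within-chip differences could thus be taken for both of these pairs. The methods describe an initial set and a second, separately prepared set of the lines, and the labels do not tie the letters A and B to these sets. In bulk cultures, fewer cells of a kind and less RNA per cell cannot be told apart.

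WHFs drain from the wound after breast surgery and carry growth factors, cytokines and blood proteins, which cells read through receptors on their surface. CDCP1 is a transmembrane glycoprotein that Src family kinases phosphorylate and that is known for its role in detachment and invasion. PVR, also called CD155 or the poliovirus receptor, is an adhesion molecule of the immunoglobulin family and a ligand of receptors on lymphocytes. IL24 is a secreted cytokine of the interleukin-10 family that signals through JAK kinases and STAT factors. These 3 genes came with the rule that defines the strong and weak lines.

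Of 47319 probes on the Illumina beadchips, 21189 had a detection p-value under 0.05 on at least 10 of the 20 arrays and were kept, covering 11864 genes. Detected probes numbered between 19693 and 21078 on WHF-treated and between 20793 and 21908 on untreated arrays of the strong lines. They numbered between 21522 and 22456 on WHF-treated and between 21734 and 22865 on untreated arrays of the weak lines. CDH1, the gene for E-cadherin, was detected on every array of SUM 149 and MDA-MB-468 and on no array of MDA-MB-231 or BT549. In MDA-MB-157, 1 untreated array detected it. Other epithelial genes did not all follow this split. EPCAM, KRT8, KRT18 and CLDN7 were detected on every array of all lines but BT549, which detected none of them, and ELF3 on all 20 arrays. VIM, the gene for vimentin, was detected on all 20 arrays. The mesenchymal gene ZEB1 was detected on every array of MDA-MB-231 and BT549 and on no other. ERBB2 was detected on all arrays too, ESR1 on every array of SUM 149 and MDA-MB-468, and PGR on every array of MDA-MB-157. Of the markers of other cell types, 5 of 13 leukocyte, 1 of 7 red cell, 2 of 6 endothelial and 3 of 5 adipocyte genes passed the filter. No array detected the leukocyte gene PTPRC, the endothelial gene CDH5, the adipocyte gene PLIN1 or the hemoglobin gene HBA1. CD68 and FCGR3A of the leukocyte list and LEP of the adipocyte list were detected on all 20 arrays. HBA2 was detected on every array of BT549, SUM 149 and MDA-MB-157, and PECAM1 and TEK on every array of MDA-MB-231 and BT549 and on none of MDA-MB-157. The part of these genes in the results was not tested.

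A response is the log2 level in a WHF-treated culture minus that in the untreated culture with the same replicate letter. Over the 21189 probes, the SD of the line response was 0.541 in MDA-MB-231, 0.660 in BT549 and 0.635 in SUM 149, against 0.404 in MDA-MB-157 and 0.370 in MDA-MB-468. These values chose the groups and carry no test. Every single culture pair kept the order. The SDs of pairs A and B were 0.588 and 0.601 in MDA-MB-231, 0.712 and 0.691 in BT549, and 0.608 and 0.781 in SUM 149. They were 0.466 and 0.420 in MDA-MB-157 and 0.447 and 0.376 in MDA-MB-468. Replicate noise differed as well. As the SD of the difference between pairs A and B divided by 2, it lay between 0.238 and 0.294 in the strong lines and was 0.182 in MDA-MB-157 and 0.184 in MDA-MB-468. The part of the spread that A and B shared was 0.482 in MDA-MB-231, 0.615 in BT549 and 0.563 in SUM 149, against 0.361 in MDA-MB-157 and 0.321 in MDA-MB-468. The strong lines thus had a larger spread in the shared part and in the noise, and fewer detected probes on WHF-treated arrays, whose part in the result was not tested. Among the brightest 25% of probes, the SDs lay closer together, with 0.418, 0.563 and 0.473 in MDA-MB-231, BT549 and SUM 149 against 0.393 in MDA-MB-157 and 0.349 in MDA-MB-468.

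**Figure D1:**
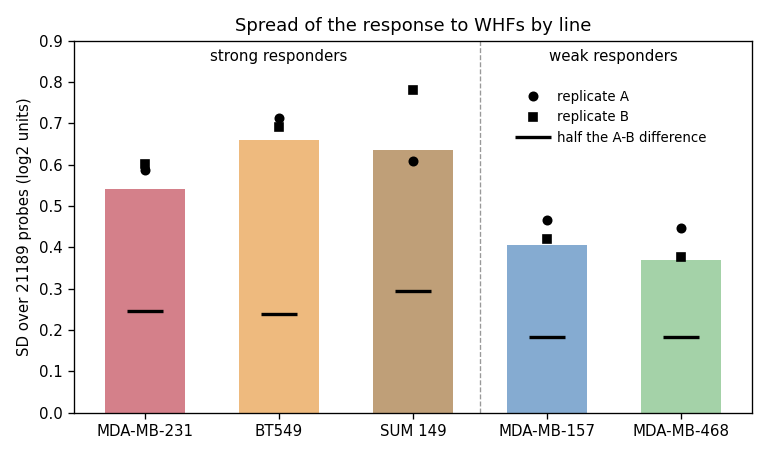
SD over 21189 probes of the log2 response to WHFs in each line, with the strong responders left of the dashed line and the weak responders right of it. Bars are SDs of the response averaged over replicates A and B, symbols are single culture pairs, and the short line is the SD of the difference between A and B divided by 2. The lowest strong bar, 0.541 in MDA-MB-231, stands above the highest weak bar, 0.404 in MDA-MB-157.

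More than a 2-fold response (1 on the log2 scale) was reached upward by 2.87% of probes in MDA-MB-231, 4.58% in BT549 and 3.95% in SUM 149, against 1.08% in MDA-MB-157 and 0.883% in MDA-MB-468. Downward, the shares were 3.88%, 6.38% and 6.53% in the same order of strong lines, against 1.42% and 0.84% in the weak lines. Across probes, the responses of the strong lines correlated with each other at Pearson's r of 0.484 for MDA-MB-231 and BT549, 0.421 for MDA-MB-231 and SUM 149 and 0.377 for BT549 and SUM 149. MDA-MB-157 and MDA-MB-468 gave 0.255. The pairs on a shared chip gave 0.276 for BT549 and MDA-MB-157 and 0.0595 for SUM 149 and MDA-MB-468. These values describe 21189 probes, which are not independent replicates, and lines on a chip share its processing.

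In each of the 3 strong lines, 113 probes were higher by more than 1 on the log2 scale with both replicates above 0 (0.533% of those tested), and 180 were lower by more than 1 (0.849%). A probe is called shared here when, besides this, its response lay within 0.5 of 0 in both weak lines. There were 74 shared higher probes (0.349%), of which 57 were named, for 50 genes. There were 99 shared lower probes (0.467%), of which 87 were named, for 84 genes. With the authors' normalized values the same limits gave 29 higher probes, 22 of them among the 74, and 30 lower probes, 24 of them among the 99. The rule uses the response itself, so these counts describe the lines and are not tested. All 6 responses of the strong lines lay above all 4 of the weak lines for 69 of the 74, where 4.24% of all probes had this order. The 6 lay below the 4 for 97 of the 99, against 5.74% of all probes. The rule leaves little room for another order, so nothing is read from these shares. The reverse pattern, past 1 in both weak lines and within 0.5 of 0 in all strong lines, was met by 4 probes upward (0.0189%) and 1 downward (0.00472%). NNMT, which methylates nicotinamide, gave 0.42 in MDA-MB-231, 0.38 in BT549 and −0.27 in SUM 149, against 2.57 in MDA-MB-157 and 1.08 in MDA-MB-468. MGLL, a monoacylglycerol lipase, was the other named gene upward and LYPD1 the gene downward.

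**Figure D2:**
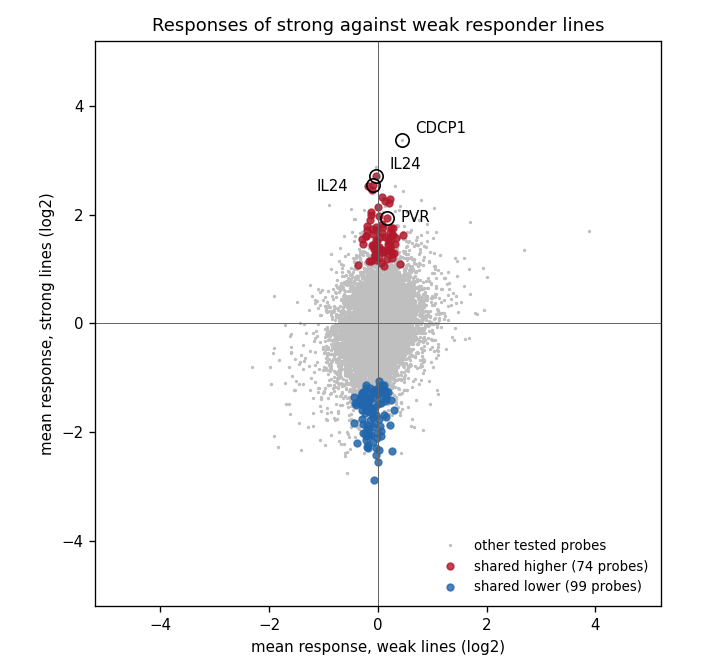
Mean log2 response of the 3 strong lines (vertical axis) against the mean of the 2 weak lines (horizontal axis) for 21189 probes, 1 point each. Red points are the 74 shared higher and blue points the 99 shared lower probes, and open circles mark probes of CDCP1, PVR and IL24. CDCP1 probe ILMN_1708167 has the highest strong-line mean of the circled ones, at 3.38, with 0.44 in the weak lines.

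Both tested probes of IL24 were in the shared higher set. For probe ILMN_1725814, WHF-treated and untreated levels in replicate A were 11.28 and 6.97 in MDA-MB-231, 6.24 and 5.35 in BT549, and 9.85 and 7.48 in SUM 149. In replicate B they were 11.89 and 6.66, 6.21 and 4.81, and 9.61 and 7.52 in the same lines. All 6 WHF-treated arrays of the strong lines detected it. No array of MDA-MB-157 or MDA-MB-468 did, with or without WHFs, and neither did the untreated arrays of BT549. The responses were 4.76 in MDA-MB-231, 1.14 in BT549 and 2.23 in SUM 149, so the lines differed among themselves as well. With the second probe, ILMN_1774685, they were 4.06, 2.31 and 1.29 in the same order. Because the weak lines gave no signal above background, only a bound is at hand for them. After WHFs, the strong-line mean of IL24 was at least 31.9-fold higher than in weak lines with probe ILMN_1774685 and at least 12.1-fold with ILMN_1725814. These bounds set the mean of the strong lines against the dimmest detected signal of each weak array, or the probe's own where higher. They do not hold for each strong line. WHF-treated levels with ILMN_1774685 were 13.07 in MDA-MB-231 and 11.21 in SUM 149 but 7.42 in BT549. Both probes passed the detection filter through arrays of the strong lines alone.

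CDCP1 was measured by 4 probes, whose responses differed. Probe ILMN_1708167 gave responses in replicates A and B of 4.39 and 4.004 in MDA-MB-231, 3.73 and 2.25 in BT549, and 2.72 and 3.18 in SUM 149. In the weak lines they were 0.87 and 0.56 in MDA-MB-157 and 0.21 and 0.12 in MDA-MB-468, where no array detected the probe. The groups did not overlap, and the strong-minus-weak difference was 2.94 on the log2 scale. MDA-MB-157, at 0.72, exceeded the limit of 0.5, so this probe is not in the shared set. Probes ILMN_2341611 and ILMN_1688670 gave smaller responses, 1.34 and 1.19 in MDA-MB-231, 1.57 and 1.69 in BT549 and 0.44 and 0.41 in SUM 149, while MDA-MB-468 gave 0.29 and 0.46 and MDA-MB-157 did not detect them. The single pairs of SUM 149 and MDA-MB-468 overlapped with both probes. Probe ILMN_1724941 went the other way. Its responses were −0.75 in MDA-MB-231, 0.06 in BT549 and −1.88 in SUM 149, against 0.22 in MDA-MB-157, which detected it on 1 of 4 arrays, and 0.17 in MDA-MB-468. CDCP1 was thus higher with WHFs in every strong culture pair with each probe but ILMN_1724941. The size of the response and its contrast with the weak lines depended on which probe is read.

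PVR was in the shared higher set with probe ILMN_3250483. Its WHF-treated and untreated levels in replicate A were 8.07 and 5.83 in MDA-MB-231, 8.27 and 7.06 in BT549, and 7.25 and 5.17 in SUM 149. In replicate B they were 8.15 and 6.26, 8.92 and 7.04, and 7.93 and 5.64. No array of the weak lines detected this probe, so it passed the detection filter through arrays of the strong lines alone. After WHFs its strong-line mean was at least 5.74-fold higher than in weak lines. The brighter PVR probe, ILMN_1677305, was detected on all arrays and gave another picture. Its responses were 0.61 in MDA-MB-231, 0.26 in BT549 and 0.60 in SUM 149, against 0.98 in MDA-MB-157 and −0.08 in MDA-MB-468. By this probe the strong-minus-weak difference was 0.04, the groups overlapped, and MDA-MB-157 had the highest response of the 5 lines.

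**Figure D3:**
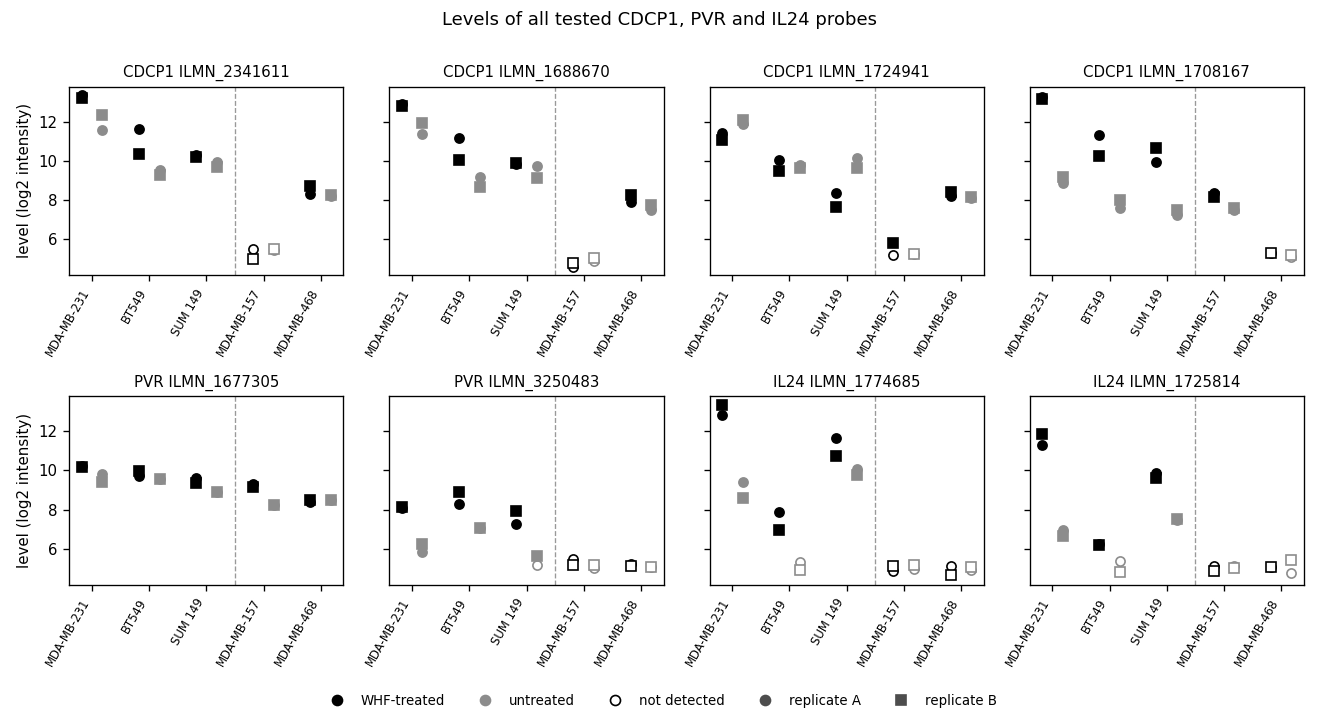
Log2 levels (vertical axis) of all tested CDCP1, PVR and IL24 probes on every array, with the lines along the horizontal axis, strong lines left of the dashed line. Black symbols are WHF-treated and grey symbols untreated cultures, circles replicate A and squares replicate B, and open symbols arrays that did not detect the probe. IL24 and PVR probe ILMN_3250483 were detected on no array of MDA-MB-157 or MDA-MB-468, whereas PVR probe ILMN_1677305 was detected on all 20.

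The region before and after the start of transcription of these 3 genes is shown because they head the comparison, as 300 bases each, from RefSeq on build GRCh38.p14. The genes lie at chr3:45082277-45146482 (CDCP1), chr19:44643910-44666162 (PVR) and chr1:206897443-206904139 (IL24). Capitals mark the GC box GGGCGG on either strand, and 7 motifs were searched in all. The CDCP1 promoter holds 3 GC boxes, and the others hold none of the motifs searched.
CDCP1, chr3:45146329-45146628, minus strand: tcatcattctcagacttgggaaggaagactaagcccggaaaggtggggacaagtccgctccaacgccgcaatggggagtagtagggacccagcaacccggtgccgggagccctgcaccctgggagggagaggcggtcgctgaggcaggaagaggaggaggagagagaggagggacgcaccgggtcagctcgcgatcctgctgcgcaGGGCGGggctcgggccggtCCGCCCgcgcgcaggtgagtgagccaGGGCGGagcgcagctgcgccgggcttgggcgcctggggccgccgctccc
PVR, chr19:44643660-44643959, plus strand: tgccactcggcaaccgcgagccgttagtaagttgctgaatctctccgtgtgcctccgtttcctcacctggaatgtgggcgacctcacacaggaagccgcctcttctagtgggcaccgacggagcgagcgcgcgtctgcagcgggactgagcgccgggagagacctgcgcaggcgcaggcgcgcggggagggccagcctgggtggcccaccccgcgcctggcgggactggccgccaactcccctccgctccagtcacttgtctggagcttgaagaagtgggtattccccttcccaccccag
IL24, chr1:206897193-206897492, plus strand: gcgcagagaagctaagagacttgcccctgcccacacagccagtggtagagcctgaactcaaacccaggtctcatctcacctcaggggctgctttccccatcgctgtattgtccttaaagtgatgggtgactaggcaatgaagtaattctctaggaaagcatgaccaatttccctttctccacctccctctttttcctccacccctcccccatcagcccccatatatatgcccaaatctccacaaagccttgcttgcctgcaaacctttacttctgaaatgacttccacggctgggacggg

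SDHAP1, a pseudogene of SDHA whose signal may include related copies, had a difference of 2.71 with 1 of its 8 tested probes, and the other 7 gave between 0.06 and 1.59. PPFIBP1 encodes liprin beta 1, a scaffold protein of focal adhesions and vesicle transport. Its probe ILMN_1705384 gave responses of 3.82 and 3.90 in MDA-MB-231, 1.18 and 1.17 in BT549, and 1.97 and 2.66 in SUM 149. Those in the weak lines were −0.17 and −0.15 in MDA-MB-157 and −0.02 and −0.12 in MDA-MB-468, where no array detected it. The strong-minus-weak difference of the line responses was 2.57. TGM2, which encodes a transglutaminase that crosslinks matrix proteins, responded by 2.69 and 2.64 in pairs A and B of MDA-MB-231, 2.27 and 1.83 in BT549, and 1.80 and 2.67 in SUM 149. It was not detected on any array of the weak lines. Its mean over the WHF-treated strong lines was at least 13.4-fold higher than in the WHF-treated weak ones. This bound does not hold for each strong line, since WHF-treated levels were 11.32 in MDA-MB-231 and 9.08 in SUM 149 but 7.55 in BT549. The TGM2 probe passed the detection filter through arrays of the strong lines alone. BCL2L11, the gene of the pro-apoptotic protein BIM, had 2 tested probes, and both were shared. The responses with ILMN_2359627 were 2.63 and 2.13 in MDA-MB-231, 2.39 and 1.86 in BT549, and 1.55 and 2.25 in SUM 149. The weak lines gave 0.56 and −0.63 in MDA-MB-157 and 0.13 and −0.06 in MDA-MB-468, with opposite signs in the replicates of each. Untreated MDA-MB-231 did not detect this probe, and there the WHF-treated level was at least 4.32-fold higher.

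EYA3, a phosphatase and transcriptional coactivator, was detected on all 20 arrays. Its WHF-treated and untreated levels in replicate A were 8.98 and 6.39 in MDA-MB-231, 10.24 and 8.45 in BT549, and 10.19 and 8.68 in SUM 149, against 7.34 and 7.76 in MDA-MB-157 and 6.77 and 6.71 in MDA-MB-468. In replicate B they were 8.82 and 6.37, 9.92 and 8.08, and 10.01 and 8.76 in the strong lines, against 7.01 and 7.47 and 6.85 and 6.59 in the weak lines. All strong pairs were higher with WHFs and both MDA-MB-157 pairs were lower. INF2, a formin that shapes actin filaments, gave line responses of 1.37 in MDA-MB-231, 1.61 in BT549 and 1.86 in SUM 149, against −0.29 in MDA-MB-157 and −0.13 in MDA-MB-468. GPRC5A, an orphan receptor inducible by retinoic acid, gave 1.09, 1.20 and 2.84 in the strong lines, against 0.05 in MDA-MB-157, which did not detect it, and −0.44 in MDA-MB-468. Replicates A and B of MDA-MB-231 gave 1.76 and 0.42 for this gene, a gap wider than the distance of the lower value from 0. RNF213, a large ubiquitin ligase, gave 1.16, 2.68 and 2.10, against 0.05 in MDA-MB-157 and no detection in MDA-MB-468. Untreated BT549 did not detect it either, so its WHF-treated level was at least 3.88-fold higher. RSRC2, an arginine- and serine-rich protein, and TAF1D, a subunit of the RNA polymerase I selectivity factor, gave strong-minus-weak differences of 1.55 and 1.54.

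Small nucleolar RNAs (snoRNAs) guide the modification or cleavage of ribosomal RNA. They made up 140 of the tested probes (0.661%) and 8 of the 74 shared higher ones (10.8%), a family that was singled out after the values were seen. SNORD3A, SNORD3C and SNORD3D are near-identical copies of the U3 RNA, which the probes may not tell apart. The line responses of SNORD3C were 1.505 in MDA-MB-231, 2.57 in BT549 and 2.68 in SUM 149, with 1.72 in replicate A and 3.64 in replicate B of the last line, against 0.75 and 0.08 in MDA-MB-157 and −0.12 and −0.22 in MDA-MB-468. Replicate B was well above replicate A in SUM 149, and likewise in BT549 at 3.64, so the size of this response is uncertain there. Over all 140 snoRNA probes, the median response was 0.46 in MDA-MB-231, 0.75 in BT549 and 0.56 in SUM 149, against 0.18 in MDA-MB-157 and 0.14 in MDA-MB-468. The median of the family lay above 0 in all 5 lines and was higher in each strong line than in either weak line.

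Among shared lower genes, RARA had the widest difference. It encodes retinoic acid receptor alpha, a nuclear receptor that switches genes on when bound by its ligand. WHF-treated and untreated levels in replicate A were 9.26 and 10.21 in MDA-MB-231, 6.56 and 10.44 in BT549, and 7.50 and 9.12 in SUM 149. They were 10.51 and 10.61 in MDA-MB-157 and 10.77 and 10.33 in MDA-MB-468. In replicate B they were 9.44 and 10.58, 7.33 and 10.50, and 5.71 and 9.03 in the strong lines, against 10.44 and 10.04 and 10.61 and 10.29 in the weak lines. The untreated means of 4 lines lay close together, 10.40 and 10.47 in MDA-MB-231 and BT549 against 10.32 and 10.31 in MDA-MB-157 and MDA-MB-468, while SUM 149 was at 9.08. RUNX1, a transcription factor of blood and mammary epithelium, had responses of −1.95 in both pairs of MDA-MB-231, −3.34 and −2.60 in BT549, and −2.04 and −1.91 in SUM 149, where the treated arrays no longer detected it. The weak lines gave 0.07 and −0.35 in MDA-MB-157 and −0.01 and 0.16 in MDA-MB-468. HDAC4, a histone deacetylase, and PER2, a repressor of the circadian clock, had smaller differences of −1.48 and −1.27, and the other tested PER2 probe gave 0.21.

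PPP1R10 encodes a nuclear targeting subunit of protein phosphatase 1 that takes part in ending transcription. Its responses were −1.90 and −1.33 in MDA-MB-231, −3.42 and −2.60 in BT549, and −2.64 and −3.34 in SUM 149, against −0.16 and −0.01 in MDA-MB-157 and −0.03 and 0.20 in MDA-MB-468. PCF11 and CSTF3, both part of the machinery that cleaves and polyadenylates messenger RNA, gave differences of −1.88 and −1.76. For CSTF3, however, the other 3 probes gave differences between 0.02 and 1.36, so the lower level was seen with 1 of its 4 probes. BCDIN3D, an RNA methyltransferase, and POP1, a subunit of ribonuclease P, were in the set too. Zinc finger genes named ZNF or ZFP made up 493 of the tested probes (2.33%) and 9 of the 99 shared lower ones (9.09%), again a family singled out after the values were seen. ZNF594 was one of them. Its responses were −2.48 in MDA-MB-231, −2.38 in BT549 and −1.86 in SUM 149, and no WHF-treated array of these lines detected it, against −0.16 in MDA-MB-157 and −0.22 in MDA-MB-468. Over all 493 probes the medians were −0.12, −0.12 and −0.23 in the strong lines, against −0.06 and −0.11 in the weak ones.

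FADS2 is the desaturase that starts the synthesis of long polyunsaturated fatty acids. WHF-treated and untreated levels were 6.70 and 8.74 in replicate A of MDA-MB-231, 8.83 and 10.51 in BT549, and 8.30 and 10.15 in SUM 149. In replicate B they were 6.53 and 8.72, 8.30 and 10.75, and 8.60 and 10.51. In the weak lines, all levels were between 5.24 and 5.78, with the probe detected on 3 of 4 arrays of MDA-MB-157 and 1 of 4 of MDA-MB-468. There was thus little signal from which FADS2 could have decreased in the weak lines, and their responses of −0.02 and −0.01 do not show that the gene was spared. AGPAT4, an acyltransferase of phospholipid synthesis, and UBASH3B, a tyrosine phosphatase, had the same limit in single lines. AGPAT4 was detected on no array of MDA-MB-468 and UBASH3B on none of MDA-MB-157. The responses of UBASH3B were −2.39 and −2.15 in MDA-MB-231, −2.36 and −2.33 in BT549 and −1.25 and −2.55 in SUM 149, against −0.30 and −0.18 in MDA-MB-468, the weak line that detected it. Its other tested probe gave −2.57 in MDA-MB-231 and −2.06 in BT549 but −0.20 in SUM 149, against 0.09 in MDA-MB-157 and −0.28 in MDA-MB-468. FADD, the adaptor of death receptors, was detected on all arrays and gave line responses of −1.29, −2.29 and −1.56 in the strong lines, against 0.37 in MDA-MB-157 and −0.08 in MDA-MB-468.

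**Figure D4:**
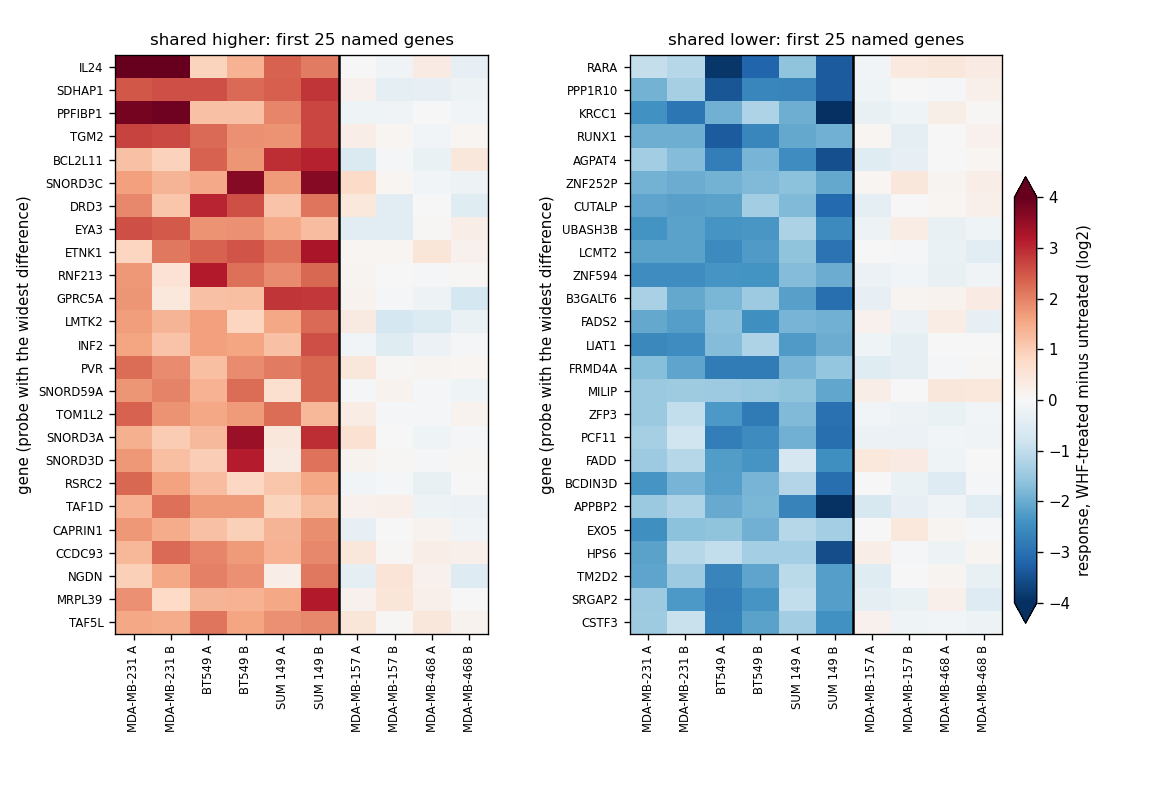
Log2 response of every culture pair (columns, strong lines left of the black line) for the first 25 named genes of the shared higher (left) and shared lower (right) sets, ordered by the strong-minus-weak difference. Red is higher and blue lower in WHF-treated cells, with the colour scale ending at 4 and −4. Culture pairs of a line can differ in size, as for APPBP2 in SUM 149 at −2.68 and −3.95.

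The limits of 1 and 0.5 leave neighbours on both sides. VPS13B was just inside with a lowest strong response of 1.01, and POGZ just outside with 0.97. DYRK3 was inside with 0.496 in a weak line and SAMD8 outside with 0.5004. On the lower side, MBLAC2 was inside at −1.002 and PRIMPOL outside at −0.9999. Sets chosen in 1 replicate were also read in the other. Both replicates had entered the choice of the lines, so these counts are a description. Of 52 probes shared higher in replicate A, 20 met all limits in replicate B as well, where 0.307% of all probes did, and 52 of 52 had a positive strong-minus-weak difference. Of 64 shared lower in A, 32 met all limits in B (0.543% of all probes), and 64 of 64 kept their sign. Chosen in B and read in A, 20 of 65 higher (0.245% of all) and 32 of 115 lower probes (0.302% of all) met all limits, and 61 and 114 kept their sign. The sign counts follow in part from the choice of lines, and nothing is read from them.

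Probes of 1 gene often did not move together. Of the 50 shared higher genes, 32 had several tested probes, and in 28 of them at least 1 other probe was not shared. Among the 47 other probes, 20 were higher in all 3 strong lines, 7 were lower in all 3, and 1 exceeded 1 in all 3. Their median strong-minus-weak difference was 0.25. Of the 84 shared lower genes, 30 had several probes, and 42 other probes gave a median of −0.35, with 21 lower and 6 higher in all 3 strong lines. For PPFIBP1 the other 3 probes gave differences of 0.80, 0.56 and −0.71, and for TGM2 the other 2 gave 0.73 and 0.02. The other INF2 probes gave 0.18 and 0.02 and the other RNF213 probe 0.25. TAF1D and RSRC2 kept their direction with 0.91 and 0.90. Where 1 probe of a gene exceeded 1 upward in a single line, 36.2% to 47.5% of the gene's other probes did too. Downward, the single-line range was 34.2% to 56.9%. With the limit passed in all 3 strong lines, the share of other probes that also passed was 18.1% upward and 25.8% downward. For the shared higher set, 21.7% of 60 other probes were also shared, and for the shared lower set 12.5% of 48. The shared rule must be met in all lines at once, so its shares cannot be compared with those of a single line.

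**Figure D5:**
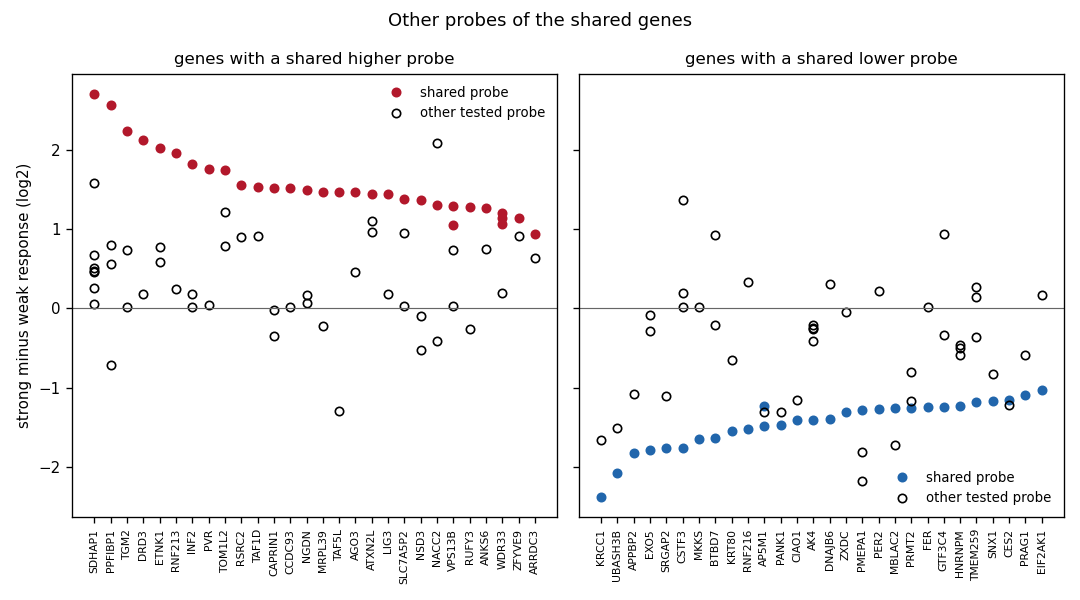
Strong-minus-weak difference of the log2 response (vertical axis) for genes with several tested probes (horizontal axis), shared higher genes left and shared lower genes right. Filled points are the shared probes and open circles the gene's other tested probes. For CSTF3 the filled point is at −1.76 and the open circles reach 1.36, whereas the open circle of TAF1D, at 0.91, is on the side of its filled point at 1.54.

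The levels in untreated cells are the measure by which the lines were not chosen, although a response subtracts them. Untreated levels of the 3 strong lines were compared with those of the 2 weak lines by limma on line means. No probe passed an adjusted p of 0.1 in either direction (0% of 21189). A fit of the 10 untreated arrays with the replicate block, which takes the line as a random block, called 33 higher and 28 lower of the 21189 probes. That fit counts the cultures of a line as partial replicates, whereas the line is the unit here, so nothing is read from its calls. In the fit on line means, 1194 probes had an unadjusted p under 0.05, which is 5.64%. In simulated data, the test recovered 11 of 100 probes that differed by 2 and 79 of 100 that differed by 4 on the log2 scale, with 14 false calls. With 3 lines against 2, smaller gaps were thus rarely detectable.

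For the shared higher set, the median strong-minus-weak difference in untreated cells was 0.23 on the log2 scale, where all tested probes had 0.03. It was above 0 for 50 of 74 probes (67.6%, against 52.7% of all tested). The untreated difference was above 1 for 10 of the 74 (7.97% of all tested) and below −1 for 0 (7.11%). All untreated strong means lay above both weak means for 14 (12% of all) and below them for 0 (9.97%). With limma, 1 of the 74 had an unadjusted p under 0.05 (1.35%, against 5.64% of all tested). On the 4 untreated arrays of the weak lines, 43 of the 74 were detected on all 4 (58.1%, against 82.3% of all tested probes) and 6 on none (8.11% against 0.533%). The filter of 10 arrays can be passed through the 12 strong arrays alone but not through the 8 weak arrays, so nothing is read from these shares. The 4 probes that no array of the weak lines detected were those of IL24, TGM2 and PVR named above. Of the 74, 34 were detected on all 20 arrays (45.9%, against 63.6% of all tested probes), and nothing is read from this share either. IL24 was detected in untreated MDA-MB-231 and SUM 149 and in no other untreated line. TGM2 was likewise detected in untreated MDA-MB-231 and SUM 149 alone. EYA3, BCL2L11, INF2 and TAF1D had untreated levels that overlapped between strong and weak lines.

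CDCP1 was higher in every untreated strong line than in either untreated weak line with 3 of its 4 probes. Of all tested probes, 12% had this order, and the 3 probes read 1 gene in the same lines. With ILMN_2341611, the untreated means were 11.95 in MDA-MB-231, 9.40 in BT549 and 9.81 in SUM 149, against 5.47 in MDA-MB-157, where the probe was not detected, and 8.21 in MDA-MB-468. The difference was 3.55 (standard error 1.12, limma's adjusted p = 0.867). The exact permutation test gave a two-sided p of 0.1, which is the smallest that 10 splits of 5 lines allow. ILMN_1688670 and ILMN_1724941 gave 3.71 and 3.84, with the same exact p. The probe with the largest response, ILMN_1708167, gave 1.74, and there MDA-MB-157 at 7.52 exceeded SUM 149 at 7.35 (exact p = 0.3). The brighter PVR probe was at 9.61, 9.57 and 8.89 in the strong lines, against 8.25 in MDA-MB-157 and 8.51 in MDA-MB-468, a difference of 0.97 with an exact p of 0.2 over the lines.

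Most shared lower probes were detected before WHFs. All 99 were detected on the 6 untreated arrays of the strong lines, against 75.4% of all tested probes. On the 4 untreated arrays of the weak lines 92 were detected (92.9%, against 82.3%). A fall past 1 needs a level to fall from, so nothing is read from the share in the strong lines. On WHF-treated arrays of the strong lines many were lost, and 35 of the 99 were detected on all 20 arrays (35.4%, against 63.6% of all tested probes). The probes were chosen for a fall in these lines, which favours such losses, so nothing is read from this share either. The median untreated difference was −0.27, above 0 for 34 of 99 probes (34.3%, against 52.7% of all tested). With limma, 16 of 99 had an unadjusted p under 0.05 (16.2%, against 5.64%), none after adjustment. Since an untreated level is part of the response, the levels were also read in the replicate that had not chosen the probes. The median was then −0.33 in replicate B for probes chosen in A and −0.17 in replicate A for probes chosen in B. For the shared higher probes it was 0.11 and 0.49. The untreated difference of FADS2 ran the other way. Its untreated means were 8.73 in MDA-MB-231, 10.63 in BT549 and 10.33 in SUM 149, against 5.66 in MDA-MB-157 and 5.51 in MDA-MB-468, a difference of 4.31 (standard error 0.645, unadjusted p = 0.000893 and adjusted p = 0.808, both from limma). The untreated strong-minus-weak difference was −1.12 for B3GALT6, a galactosyltransferase, −1.31 for HDAC4 and 1.41 for MALT1, a protease of NF-kB signalling, each with an unadjusted p under 0.05 that did not pass adjustment.

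Lists of genes from pathways that wound fluids could engage were read for the same difference. Over all tested probes the strong-minus-weak difference had a median of −0.01, exceeded 1 upward in 2.3% and downward in 3.32%. Of 16 measured genes of the interleukin-1 and NF-kB list, 1 exceeded 1 upward and 3 downward, with a median of −0.48. IL1R1, the signalling receptor of interleukin-1, gave −0.57 in MDA-MB-231, −0.40 in BT549 and −0.55 in SUM 149, where no array detected it, against 1.13 in MDA-MB-157 and 1.09 in MDA-MB-468. SOD2, an NF-kB target, gave −0.32, 1.42 and −0.50, against 2.90 and 0.67. Chemokine responses differed among the lines of each group. CXCL2 gave −1.02 in MDA-MB-231, 2.33 in BT549 and −2.14 in SUM 149, against 3.27 in MDA-MB-157 and 0.08 in MDA-MB-468. CCL20 gave 4.88 in BT549 and between −0.61 and 0.71 in the other 4 lines. Among 14 immediate early factors, none exceeded 1 in either direction, and the median was −0.01.

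In the list of IL24, IL6-family and colony-stimulating factors, 12 of 20 genes were measured, with 1 difference past 1 each way. OSMR, the receptor chain for oncostatin M and interleukin-31, responded by −0.80 and −1.29 in MDA-MB-231, −1.03 and −1.22 in BT549, and −2.01 and −3.15 in SUM 149, against 0.65 and 0.80 in MDA-MB-157 and 0.11 and 0.22 in MDA-MB-468. All 6 strong responses were below 0 and all 4 weak ones above it. SPRED2, an inhibitor of ERK signalling, followed the same order, with −0.80, −1.25 and −2.12 against 0.51 and 0.13. It was 1 of 2 genes past −1 among 13 ERK feedback genes. PMEPA1, which restrains TGF-beta signalling, gave −3.21, −2.12 and −2.93, against −0.77 and −0.39, with its brighter probe. ID3, a target of bone morphogenetic proteins, gave 1.25, 2.33 and 0.58, against −0.52 and −0.86. TSC22D3, known as the glucocorticoid-induced leucine zipper, gave 1.02, 1.24 and 1.48, against −0.15 and −0.55. It was 1 of 2 upward among 9 glucocorticoid targets, and 2 others went downward. TIPARP, a target of the aryl hydrocarbon receptor, gave 2.54, 2.19 and 2.57, against 1.13 in MDA-MB-157 and −0.20 in MDA-MB-468.

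Over 19 cholesterol genes, the median differed by 0.71 between the groups, with 6 genes past 1 upward. The weak lines differed from each other. The list's median response was −1.07, −0.17 and −0.81 in MDA-MB-231, BT549 and SUM 149, against −0.81 in MDA-MB-157 and −1.96 in MDA-MB-468. HMGCS1, an early enzyme of cholesterol synthesis, gave −1.56 in MDA-MB-231, 0.11 in BT549 and −0.94 in SUM 149, against −1.52 in MDA-MB-157 and −3.13 in MDA-MB-468. G2/M genes, with a median difference of 0.62 over 27 genes, had a positive median of 0.88 in SUM 149 and medians between −0.61 and −0.21 in the other lines, so the strong lines did not share a sign. Metallothioneins gave medians of 1.45, 2.62 and 0.19 in the strong lines, against 1.27 and 0.54. Of 16 hypoxia and glycolysis genes, 4 were past −1 and none past 1. ANKRD37 gave −1.65, −0.82 and −1.93, against 0.01 and −0.42, and BNIP3, a mitophagy receptor, gave −1.05, −1.62 and −0.12, against 0.41 and 0.19. Of 35 interferon-stimulated genes, 5 were past −1, and the list's median was lowest in BT549 at −1.70 and next in MDA-MB-157 at −0.93.

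The promoters of the shared genes were searched for 7 motifs on both strands, over 43 promoters of shared higher and 102 of shared lower genes with a match in RefSeq. The E-box CACGTG occurred in 17 of 102 promoters of shared lower genes (16.7%) and in 5 of 43 of shared higher genes (11.6%), against 9.34% of promoters of all tested genes and 7.26% of all promoters. The AP-1 motif TGANTCA occurred in 4.90% and 4.65% of them, against 5.24% and 7.71%. The STAT motif TTCNNNGAA occurred in 7.84% and 6.98%, against 6.21% and 7.66%, and the GC box GGGCGG in 71.6% and 67.4%, against 65.3% and 45.0%. The CRE TGACGTCA, the TATA box TATAAA and the glucocorticoid response element were found in at most 4.90% of either set. Matches are letters in a window and were not tested as sites.

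Within the chips, SUM 149 minus MDA-MB-468 and BT549 minus MDA-MB-157 can be read without a chip between them, although the rule fixes their direction for shared genes. The differences were 2.23 and 1.21 for IL24 (ILMN_1725814), 2.38 and 1.34 for PPFIBP1, and 2.25 and 1.88 for TGM2. They were −2.85 and −3.67 for RARA and −2.05 and −2.83 for RUNX1. MDA-MB-231 had no weak line on its chip, so its differences rest on comparisons across chips.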

How the data were processed

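RNA of 20 cultures was measured on Illumina HumanHT-12 beadchips. The authors read them with BeadStudio and deposited a table of bead signal intensity with a detection p-value for each probe and array, and a table of quantile-normalized intensity. Both tables are per probe. Gene names came from the platform annotation, whose chip version differs from that in the methods. It gave 1 symbol to 30112 of the 47319 probes, and the other 17207 were left unnamed. The deposited intensities were corrected with normexp (offset 16), quantile-normalized and taken to the log2 scale, with limma 3.58.1 in R 4.3.3. Bead signals have no read depth, and the number of arrays limits the precision.

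A probe was kept where 10 or more arrays had a detection p-value below 0.05. Responses were averaged over replicates A and B for each line and described without a test, because they chose the lines. Untreated line means were tested with limma, with Benjamini-Hochberg adjustment over 21189 probes at 0.1, and marker probes with a two-sided exact permutation test. The members, lists and limits were chosen with earlier results of these data known. Genes described are among the first 25 of each shared set by the strong-minus-weak difference and among the first 3 of each list by the size of that difference, though not all of these are described. Others, such as HDAC4, PER2, POP1 and MALT1, were chosen after their values were seen. Lists used 1 probe per gene. Both rules were tested on simulated data. The shared rule recovered 86 of 100 higher and 82 of 100 lower probes planted at 1.5. Alternatives covered normalization, detection filter, limits, single replicates, lines and chips.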

Additional observations from a re-analysis of the deposited data

Results flagged for a closer look

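In 10 of the 153 probes chosen by the naming rule, all 6 culture pairs of the strong lines responded in one direction and all 4 of the weak lines in the other. The strong-minus-weak differences were 2.57 for PPFIBP1, which no array of MDA-MB-468 detected, 1.83 for INF2, 1.55 for RSRC2, −2.10 for the pseudogene ZNF252P, which may share signal with related genes, and −1.89 for the noncoding RNA MILIP. Among members of the lists they were −2.03 for OSMR, −1.61 for IL1R1, which no array of SUM 149 detected, −1.71 for SPRED2, −1.23 for BNIP3 and 2.08 for ID3. Whether the groups differ was not tested for these genes, because responses chose the lines. The naming rule itself favours wide strong-minus-weak differences. The share of this pattern over all tested probes was not counted, so nothing is read from the 10.

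Outside the probes tested, 26130 probes were under the detection filter. Of these, 3 were detected on the 6 WHF-treated arrays of the strong lines and on no other array, and 0 on the 4 WHF-treated arrays of the weak lines alone. The reverse, detection on the 6 untreated arrays of the strong lines alone, was met by 1 probe, that of LMO7. PER1, a repressor of the circadian clock, had a mean response of 1.96 over the strong lines, with 1.72 in MDA-MB-231, 2.34 in BT549 and 1.80 in SUM 149, against 0.14 in MDA-MB-157 and 0.11 in MDA-MB-468. After WHFs its mean over the strong lines was at least 3.03-fold higher than in the weak lines. The choice by detection sets this direction in advance, so nothing is read from these values. The probes without a gene name were ILMN_1788784, with a mean strong response of 1.36, and ILMN_1720238, with 0.596.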

How the results depend on the processing

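The smallest strong SD was 1.34 times the largest weak SD, and leaving out 1 replicate or line gave ratios between 1.26 and 1.57. The shared sets depended on the processing. Instead of 74 higher and 99 lower probes, there were 29 and 30 without normexp and 29 and 30 with the authors' normalized values. Of those, 22 and 24 were among the original probes in either setting. An offset of 50 gave 49 and 59, detection on all 20 arrays 34 and 35, and the limits in both replicates 20 and 32. With the weak lines within 1 of 0 there were 151 lower probes. Responses divided by each line's SD gave 69 and 122 at limits of 1 and 0.5, and 25 and 39 at limits of 2 and 1, which were chosen after seeing the data. Leaving out a replicate or a line gave between 52 and 149 higher and between 64 and 254 lower probes, where a left-out strong line removes a condition. Leaving out MDA-MB-231 gave 138 and 254, BT549 112 and 180, SUM 149 149 and 184, and replicate B 52 and 64.

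No untreated probe passed in either direction under any alternative except the replicate block, a fit of the 10 untreated arrays with the replicate letter as a term and the line as a random block (consensus correlation 0.894). It called 33 higher and 28 lower probes, but counts the cultures of a line as partial replicates, so nothing is read from these calls. The untreated median of 0.23 for shared higher probes became 0.11 and 0.49 where the other replicate chose them, and −0.27 for shared lower became −0.17 for probes chosen in B.

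Of 1410 values for 105 named probes with a difference past 1, 13 turned direction. Within the chip of SUM 149 and MDA-MB-468 these were −0.0468 for CDCP1 probe ILMN_1688670, −0.0308 for MMP3, 1.64 for SERPINA3 and −0.38 for THBS1. Within the chip of BT549 and MDA-MB-157 they were −0.0399 for EREG, −0.0336 for HMOX1, 2.54 for ALDH3A1, 0.12 for TNFRSF11B and 0.17 for PECAM1. With 1 replicate or line left out, the differences lay between −2.69 and 0.37 for CXCL1, −2.98 and 0.28 for SERPINA3, and −2.24 and 0.0173 for SLC2A3, the highest without MDA-MB-157 and the lowest without MDA-MB-468. For ALDH3A1 they lay between −3.93 without MDA-MB-157 and 1.87 without MDA-MB-468. The cause was not tested. Probes near background limit every fold in a line that does not detect them.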
